A study of Mus musculus with 6 samples.

Results

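The peroxiredoxin and thioredoxin system was followed in melatonin-treated ILC2s through 10 autosomal genes, which were taken by their symbols. They were 5 peroxiredoxins (*Prdx1*, *Prdx2*, *Prdx3*, *Prdx5* and *Prdx6*), sulfiredoxin (*Srxn1*), 2 thioredoxins (*Txn1* and *Txn2*), thioredoxin reductase (*Txnrd1*) and the thioredoxin-interacting protein (*Txnip*). All 10 were among the 16381 genes of the deposited table and all 10 passed the filter on low values. Activated ILC2s (aILC2s), which are group 2 innate lymphoid cells, were sorted from the lungs of wild-type mice. They were then kept in culture for 24 h with melatonin at 250 µM (3 samples) or with its DMSO vehicle (3 samples). The mice of both groups had been challenged with IL-33 at 0.5 µg per day for 3 days, and the study's methods describe BALB/cJ females aged 6 to 8 weeks and a sort for live CD45+, lineage-negative, ST2+ and CD127+ cells at a purity above 95%. Nothing in the labels says whether the samples of a group came from separate animals, so the p-values measure the spread between these samples. That spread may be technical, although sex-linked transcripts, given below, differed among the melatonin samples.

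Peroxiredoxins are abundant enzymes that reduce hydrogen peroxide and organic peroxides through a reactive cysteine, and thioredoxin returns most of them to the reduced state. Thioredoxin is itself recharged by thioredoxin reductase, a selenoprotein that draws electrons from NADPH. The cytosol and the mitochondria hold separate sets of these proteins. Sulfiredoxin rescues peroxiredoxins whose cysteine has been overoxidised, and TXNIP binds reduced thioredoxin and blocks it. Several genes of the system are known targets of NRF2, the transcription factor that the study followed in these cells.

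The 6 libraries held between 17056239 and 20511656 estimated counts, and every member had a mean of at least 1375 normalised counts in each group. The female transcript *Xist* was at 579 and 1091.5 normalised counts in melatonin replicates 2 and 3 and at 13.6 or below in the other 4 libraries. Those 4 held transcripts of 4 Y-linked genes, which goes against a description of females alone, and replicates 2 and 3 held none. The members are autosomal, but only melatonin replicate 1 matched the vehicle libraries in these genes, and results that turn on this are given with and without the libraries that hold *Xist*. The summed level of 10 ILC2 markers was between 123300 and 131220 normalised counts with vehicle and between 99217 and 102050 with melatonin, and *Gata3* was at 17900 or above in every library. Markers of myeloid, NK and T cells, which the gate leaves out, differed between the groups. The sum of 5 myeloid markers was between 1149 and 1334 with vehicle and between 256 and 698 with melatonin. Of these, *Lyz2* alone was between 912 and 1090 with vehicle and between 252 and 635 with melatonin. The sum of 3 NK cell markers was between 111 and 124 with vehicle and between 0 and 4.03 with melatonin. The T cell marker *Cd3e* was between 192 and 226 with vehicle and between 39.2 and 117 with melatonin. *Cd4*, *Cd8a* and *Cd5* were not among the listed genes. The B cell marker *Cd79a* was at 9.33 or below in every library. The 4 epithelial markers went in opposite directions, with *Epcam* between 623 and 745 with vehicle and between 1020 and 1230 with melatonin, *Sftpc* between 122 and 389 and between 3.02 and 6.54, *Scgb1a1* between 21.5 and 1050 and at most 1.01, and *Krt8* between 4.67 and 105 and at 0. The 2 listed markers of mast cells and basophils summed to between 2.81 and 16.8 with vehicle and between 1.87 and 36.2 with melatonin. The part of these cells in the results below was not tested. In bulk RNA, fewer cells of a type and less RNA per cell cannot be told apart.

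With melatonin, the recycling enzymes of the cytosol rose while *Prdx2*, the mitochondrial *Prdx3* and *Txn2*, and *Txnip* fell. *Srxn1* and *Txnrd1* rose, to 2.44 and 1.79 times their vehicle means. *Prdx2* was at 0.581, *Prdx3* at 0.825, *Txn2* at 0.84 and *Txnip* at 0.691 times the vehicle mean. The fall of *Txnip* rested on melatonin replicates 2 and 3, and it was at −0.03 on the log2 scale and not called without them. *Prdx1*, *Prdx5*, *Prdx6* and *Txn1* did not pass the test. Thus 2 of 10 members were called higher and 4 of 10 lower by limma at an adjusted p under 0.05, where 24.5% of the 14419 genes tested were called higher, 24.7% lower and 49.2% in either direction. Without vehicle replicate 1 or 2, 1 member was called lower. The share of members called was close to that of all genes tested. The median log2 fold change was −0.10 over the members and −0.01 over all genes tested. The 3 melatonin values lay above all 3 vehicle values for 3 members (*Prdx1*, *Srxn1* and *Txnrd1*), as they did for 30.0% of all genes tested, and below them for 3 members (*Prdx2*, *Prdx3* and *Txn2*), as they did for 30.3%. With 3 samples in each group, the smallest two-sided p of an exact permutation test on 1 gene is 0.1.

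**Figure D1:**
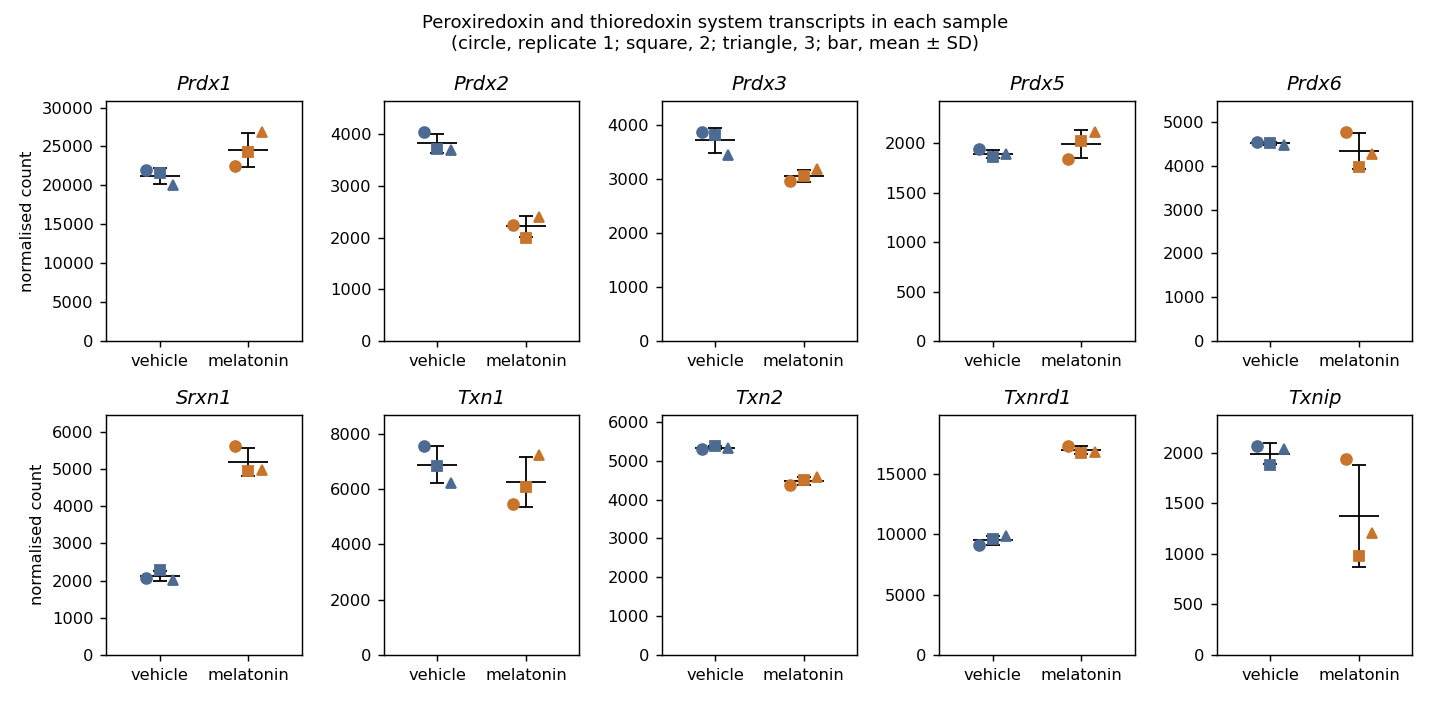
Normalised counts (vertical axes, from 0) of the 10 members in the 3 vehicle (blue) and 3 melatonin (orange) samples, with symbols for the replicates and bars for the mean ± SD. *Srxn1* and *Txnrd1* are higher and *Prdx2* is lower in every melatonin sample, and *Txnip* in melatonin replicate 1 (1941) lies among the vehicle samples.

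Among the peroxiredoxins, *Prdx2* changed most. *Prdx2* (ENSMUSG00000005161, GRCm39 chromosome 8, 85693354 to 85702350) encodes a cytosolic 2-Cys peroxiredoxin that is especially abundant in red blood cells. It was at 4040, 3720 and 3703 normalised counts in vehicle replicates 1, 2 and 3 and at 2254, 1999 and 2405 in melatonin replicates 1, 2 and 3. Every melatonin sample was well below every vehicle sample. The mean fell from 3821 ± 190 (SD, n = 3) to 2219 ± 206, that is, it fell by 0.79 on the log2 scale (SE 0.09, adjusted p = 0.00026 in limma). This call held under all 19 alternatives tried. Transcripts of 3 haemoglobin genes did not separate the groups: they summed to between 31.8 and 55.1 normalised counts with vehicle and to at most 56.0 with melatonin. A processed pseudogene, *Prdx2-ps1* on chromosome 1, was listed as well and fell from 215 ± 16.7 to 125 ± 13.9 normalised counts (log2 fold change −0.78, limma adjusted p = 0.0031), a call lost with the length correction (−0.44). Reads of the gene and of its copy cannot be fully separated, and the sum of both was at 0.581 times its vehicle mean.

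*Prdx1*, the most abundant member by counts, encodes the closest cytosolic relative of PRDX2 and did not fall with it. *Prdx1* (chromosome 4, 116532123 to 116558398) was at 21978, 21597 and 20000 normalised counts with vehicle and at 22495, 24222 and 26836 with melatonin. All 3 melatonin values were higher, but the lowest of them was close to the highest vehicle value. The log2 fold change of 0.21 (standard error 0.09, 95% interval 0.00 to 0.41) did not pass the test (limma adjusted p = 0.086). It was called without melatonin replicate 1 (0.27, limma adjusted p = 0.013), and was 0.09 when that replicate stood alone against the vehicle samples. Among the sum of the 5 peroxiredoxins, scaled per kilobase of the canonical transcript, *Prdx1* made up between 52.0% and 53.0% with vehicle and between 58.5% and 61.9% with melatonin. *Prdx2* went from between 11.4% and 12.1% to between 6.30% and 7.31%. The sum itself was 15080 ± 630 (SD, n = 3) normalised counts per kilobase with vehicle and 15135 ± 960 with melatonin.

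*Prdx3* (chromosome 19, 60852489 to 60863017), the peroxiredoxin of the mitochondrial matrix, was at 3868, 3822 and 3453 normalised counts with vehicle and at 2957, 3058 and 3178 with melatonin. The groups did not overlap, although the gap between them was narrow. It fell by 0.28 on the log2 scale (standard error 0.08, limma adjusted p = 0.017). The call was lost when vehicle replicate 1 or 2 was left out (−0.25 in each case) and after a correction for transcript length (−0.18).

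*Prdx5* and *Prdx6* overlapped between the groups. *Prdx5* (chromosome 19, 6884065 to 6887792), whose product is found in mitochondria, peroxisomes and cytosol, was at 1938, 1857 and 1893 normalised counts with vehicle and at 1841, 2022 and 2113 with melatonin. *Prdx6* (chromosome 1, 161051417 to 161079098) encodes a 1-Cys enzyme that is recharged by glutathione in place of thioredoxin. Its values were 4543, 4516 and 4473 with vehicle and 4768, 3963 and 4268 with melatonin. Melatonin replicate 1 was above the vehicle samples and the other two below them. The log2 fold changes were 0.07 (95% interval −0.11 to 0.25, limma adjusted p = 0.50) for *Prdx5* and −0.06 (95% interval −0.25 to 0.13, limma adjusted p = 0.56) for *Prdx6*. The X-linked *Prdx4*, which encodes the peroxiredoxin of the endoplasmic reticulum and is not a member, was called higher (log2 fold change 0.46, limma adjusted p = 0.0027), and at 0.36 also without the 2 libraries that hold *Xist*. *Prdx6b*, a copy of *Prdx6*, was at 7.34 normalised counts or below in every sample and was not tested.

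**Figure D2:**
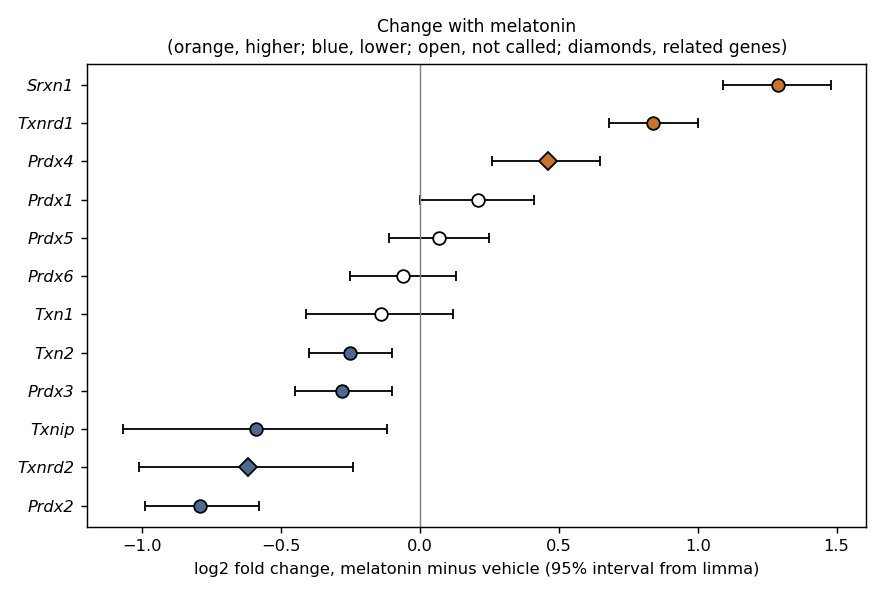
Log2 fold change of melatonin minus vehicle (horizontal axis) with 95% intervals from limma for the 10 members (circles) and for *Prdx4* and *Txnrd2* (diamonds). Intervals of *Srxn1* (1.09 to 1.48) and *Txnrd1* (0.68 to 1.00) lie far above 0, and that of *Prdx2* (−0.99 to −0.58) lies far below it.

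*Srxn1* showed the largest change of the 10 members. *Srxn1* (ENSMUSG00000032802, chromosome 2, 151947436 to 151957687), whose product reduces overoxidised 2-Cys peroxiredoxins at the cost of ATP, was at 2070, 2281 and 2017 normalised counts with vehicle and at 5618, 4958 and 4961 with melatonin. The lowest melatonin value was more than double the highest vehicle value. The mean rose from 2122 ± 140 (SD, n = 3) to 5179 ± 380, which is a rise of 1.29 on the log2 scale (SE 0.09, adjusted p = 2.6e-05 in limma), and 12.4% of all genes tested had a larger change in either direction. *Txnrd1* (ENSMUSG00000020250, chromosome 10, 82669785 to 82733546), the cytosolic thioredoxin reductase, was at 9124, 9593 and 9829 normalised counts with vehicle and at 17343, 16789 and 16876 with melatonin. The 3 melatonin samples were close together and far above the vehicle samples. It rose from 9515 ± 359 to 17003 ± 298, which is a rise of 0.84 on the log2 scale (SE 0.07, adjusted p = 7.3e-05 in limma). Each of these calls held under all 19 alternatives, with log2 fold changes between 1.22 and 1.41 for *Srxn1* and between 0.74 and 0.98 for *Txnrd1*.

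The promoters of *Srxn1*, *Txnrd1* and *Prdx1* are shown because these were the members whose melatonin samples all lay above the vehicle samples. The sequences are those of RefSeq on GRCm38.p6, an earlier build than the GRCm39 of the gene positions above, and each runs 5′ to 3′ through the 250 bases before a start. Capitals mark matches, on either strand, to TGACNNNGC, the core of the antioxidant response element that NRF2 binds, or to TGANTCAGC, a related form that contains an AP-1-type TGAGTCA or its complement where N is G or C. For *Srxn1* the window is chr2:152105274-152105523, for *Txnrd1* it is chr10:82858956-82859205 and for *Prdx1* it is chr4:116685349-116685598, all on the + strand.
Srxn1: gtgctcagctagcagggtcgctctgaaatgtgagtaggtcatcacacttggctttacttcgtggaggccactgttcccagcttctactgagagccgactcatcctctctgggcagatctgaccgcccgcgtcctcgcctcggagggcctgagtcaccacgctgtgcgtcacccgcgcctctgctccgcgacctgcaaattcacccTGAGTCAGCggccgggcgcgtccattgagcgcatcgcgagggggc
Txnrd1: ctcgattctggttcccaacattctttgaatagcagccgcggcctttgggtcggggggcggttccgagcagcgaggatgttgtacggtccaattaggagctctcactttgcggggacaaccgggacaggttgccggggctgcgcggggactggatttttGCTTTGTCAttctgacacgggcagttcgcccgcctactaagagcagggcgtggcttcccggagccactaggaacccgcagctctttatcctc
Prdx1: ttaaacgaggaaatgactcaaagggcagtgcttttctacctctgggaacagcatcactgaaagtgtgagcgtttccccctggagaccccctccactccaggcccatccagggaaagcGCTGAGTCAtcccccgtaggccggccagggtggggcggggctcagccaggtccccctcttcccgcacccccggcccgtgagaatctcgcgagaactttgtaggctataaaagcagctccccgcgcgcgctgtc

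The match marked in *Srxn1* is to TGANTCAGC alone and has its first base at position −45 from the start. That in *Txnrd1* is to TGACNNNGC alone and begins at −92. In *Prdx1* both patterns match the same bases, from −133. The only match of *Srxn1* to TGACNNNGC begins at position 29 after the start, outside the printed window. Promoter windows of 300 bases, 250 before and 50 after a start, were at hand for 9 of the 10 members, with 3 windows for the separate starts of *Txnrd1*, and TGACNNNGC was found in 3 of these 11 windows and in 12.4% of all 32851 windows. All 3 belonged to *Srxn1*, *Txnrd1* and *Prdx1*. In *Txnrd1*, only the window shown held the match. TGANTCAGC was found in *Srxn1* and *Prdx1* and in 1.19% of all windows, and TGAGTCA, which overlaps it, in the same 2 members (also at −102 in *Srxn1* and at −237 in *Prdx1*) and in 5.20%. The looser TGANNNNGC was found in 6 of the 11 windows, also in those of *Txn2* and *Prdx5*, and in 41.3% of all windows. TGACNNNGC followed by A was found in *Txnrd1* alone among the members and in 3.04% of all windows. Of the other motifs searched, CACGTG was in 7.15% of all windows, TGAGTCA with a GC after a short gap in 0.42% and a spaced pair of CACGTG in 0, and none of these was in a member's window. Imperfect forms of CACGTG were not searched, so nothing follows from this for *Txnip*. A match describes letters and not a bound site, and the counts do not tell which start of *Txnrd1* was used.

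The thioredoxins themselves changed little. *Txn1* (chromosome 4, 57934208 to 57956424), the cytosolic thioredoxin, was at 7554, 6841 and 6220 normalised counts with vehicle and at 5438, 6084 and 7214 with melatonin. The groups overlapped, and the log2 fold change of −0.14 (95% interval −0.41 to 0.12) did not pass the test (limma adjusted p = 0.33). It was 0.13 with a correction for transcript length, and without the libraries that hold *Xist* it was −0.33 and called lower (adjusted p = 0.043 in limma). A short pseudogene listed under its name, *Txn-ps1*, was between 34.6 and 56.7 normalised counts in the 6 samples. Its part in the values of *Txn1* was not tested. *Txn2* (chromosome 15, 77799247 to 77818565), the mitochondrial thioredoxin, was at 5293, 5381 and 5336 with vehicle and at 4380, 4502 and 4570 with melatonin. The samples of each group were close together and the groups were apart. It fell by 0.25 on the log2 scale (standard error 0.07, limma adjusted p = 0.013), a call lost when vehicle replicate 1 or 2 was left out (−0.26 and −0.25) and with quantile normalisation (−0.15).

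*Txnrd2*, the mitochondrial reductase, is not a member and recharges TXN2. It was at 681, 818 and 742 normalised counts with vehicle and at 365, 520 and 592 with melatonin, and it fell by 0.62 on the log2 scale (standard error 0.17, limma adjusted p = 0.015). The call was lost without vehicle replicate 2 (−0.56) and without the mean-variance trend (adjusted p = 0.052 in limma), and the value was −1.03 without the libraries that hold *Xist*. *Prdx3* and *Txn2* also lost their calls without vehicle replicate 2. Within each sample, the ratio of *Txnrd1* to *Txnrd2*, chosen after the values were seen, was 13.4, 11.7 and 13.3 with vehicle and 47.5, 32.3 and 28.5 with melatonin.

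Ratios within a sample do not depend on the size factor of the library. The ratio of *Txnrd1* to *Txn1* was 1.40 ± 0.186 (SD, n = 3) with vehicle and 2.76 ± 0.425 with melatonin. The ratio of *Srxn1* to *Prdx1* went from 0.10 ± 0.00573 to 0.213 ± 0.0332. In each of these ratios the lowest melatonin sample was above the highest vehicle sample. The ratio of *Txnip* to *Txn1* was 0.273, 0.274 and 0.326 with vehicle and 0.357, 0.16 and 0.167 with melatonin, so that melatonin replicate 1 was above and melatonin replicates 2 and 3 were below the vehicle samples.

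**Figure D3:**
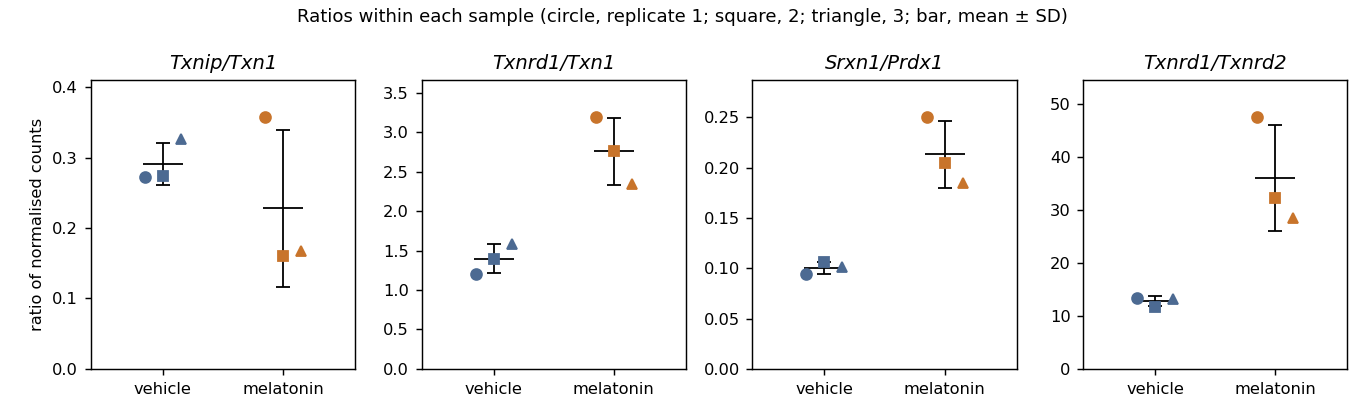
Ratios of normalised counts (vertical axes, from 0, no unit) within each vehicle (blue) and melatonin (orange) sample, with bars for the mean ± SD. The ratios with *Txnrd1* or *Srxn1* as numerator do not overlap between the groups, and the ratio of *Txnip* to *Txn1* does.

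Relative to its mean, *Txnip* was the member that varied most among melatonin samples. *Txnip* (ENSMUSG00000038393, chromosome 3, 96465267 to 96469201) encodes an α-arrestin that binds thioredoxin and also lowers glucose uptake, and its transcription follows glucose supply. It was at 2065, 1874 and 2030 normalised counts with vehicle and at 1941, 974 and 1208 with melatonin. Melatonin replicate 1 lay within the range of the vehicle samples, and melatonin replicates 2 and 3, the libraries that hold *Xist*, were far below it. The log2 fold change over all samples was −0.59 (standard error 0.21, limma adjusted p = 0.043). Without melatonin replicate 1 it was −0.87 (limma adjusted p = 0.0003), and with melatonin replicate 1 alone, of the same sex as the vehicle libraries, it was −0.03 (limma adjusted p = 0.76). The call was also lost in each of the other 5 fits that left out 1 library, with log2 fold changes between −0.64 and −0.38. The sex of the donors and other differences between the melatonin libraries cannot be told apart.

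The order of the members was compared per kilobase of the canonical transcript, since longer transcripts yield more reads. With vehicle, the level per kilobase was 8700 ± 845 (SD, n = 3) for *Txn1*, 7930 ± 393 for *Prdx1*, 2860 ± 108 for *Txnrd1*, 2500 ± 153 for *Prdx3* and 2410 ± 19.8 for *Txn2*. *Txn1* and *Prdx1* overlapped, as did *Prdx3* and *Txn2*. Below them came *Prdx2* at 1780 ± 88.6, *Prdx6* at 1670 ± 13.1, *Prdx5* at 1200 ± 25.9, *Txnip* at 702 ± 36.0 and *Srxn1* at 295 ± 19.4. With melatonin, *Prdx1* at 9170 ± 818 came above *Txn1* at 7910 ± 1140, although their samples overlapped, *Prdx2* at 1040 ± 95.9 came below *Prdx5* at 1260 ± 87.6, and *Srxn1* at 719 ± 52.8 above *Txnip* at 485 ± 178. Such levels depend on the transcript chosen. The protein-coding transcripts of *Prdx1* run from 611 to 2833 bases and those of *Txn1* from 449 to 1064, so the order of these genes could differ with other isoforms.

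Genes that work with the thioredoxin system were counted in 5 lists, whose counts are read against the 24.5% of all genes tested that were called higher and the 24.7% called lower. Of 22 genes with a thioredoxin fold or a close tie to it, 18 were tested, and 5 were higher, 5 lower and 8 not called by limma, with a median log2 fold change of 0.02. The largest rises were those of *Tmx2* (0.80), a transmembrane thioredoxin-like protein of the endoplasmic reticulum, and *Txndc16* (0.78). The largest falls were those of *Txnrd2*, given above, and *Txndc17* (−0.57). The number of lower genes in this list was 1 without vehicle replicate 2 and 3 without vehicle replicate 1.

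A list of 11 genes held clients of thioredoxin (methionine sulfoxide reductases, ribonucleotide reductase and *Map3k5*) and 3 sestrins, which are not established clients. Of these 11, 2 were higher, 1 lower and 8 not called, with a median log2 fold change of 0.14. *Sesn1*, a sestrin linked to the repair of peroxiredoxins and to mTORC1, was at 765, 740 and 788 normalised counts with vehicle and at 2308, 2191 and 1928 with melatonin, and rose by 1.48 on the log2 scale (SE 0.09, adjusted p = 2.1e-05 in limma). Every melatonin sample was more than double the vehicle samples. The subunits of ribonucleotide reductase, which takes its electrons from thioredoxin or glutaredoxin, differed, with *Rrm2* higher at 0.39, *Rrm1* lower at −0.25 and *Rrm2b* at 0.21 and not called. The call of *Rrm1* was lost without any 1 of the 3 vehicle samples, without melatonin replicate 3, without the trend and with quantile normalisation (−0.11). None of the 4 methionine sulfoxide reductases, *Msra*, *Msrb1*, *Msrb2* and *Msrb3*, passed the test in limma, with log2 fold changes of −0.28, 0.01, 0.17 and −0.26.

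Relatives and activators of TXNIP formed a list of 8 genes, of which 7 were tested and 4 were higher, 2 lower and 1 not called, with a median of 0.44. *Arrdc3*, an α-arrestin like TXNIP, was at 202, 177 and 215 normalised counts with vehicle and at 869, 1058 and 764 with melatonin, and rose by 2.17 on the log2 scale (SE 0.14, adjusted p = 2.5e-05 in limma). *Arrdc2* (0.92) and *Arrdc1* (0.44) were also higher. *Arrdc4*, which like *Txnip* is driven by the glucose-responsive MondoA and MLX factors, was at 243, 233 and 264 with vehicle and at 192, 127 and 102 with melatonin (log2 fold change −0.86, limma adjusted p = 0.012). As for *Txnip*, melatonin replicate 1 was the nearest to the vehicle samples, and against that replicate alone *Arrdc4* was at −0.36 and not called. *Mlx* fell by 0.27 on the log2 scale and lost its call without vehicle replicate 1 or 2, without melatonin replicate 2 and without the libraries that hold *Xist*. *Mlxip*, the gene of MondoA, did not fall and was not called (log2 fold change 0.22, limma adjusted p = 0.088). It was at 862, 795 and 873 normalised counts with vehicle and at 1057, 892 and 1001 with melatonin. *Mlxipl* was called higher from a low level, between 2.80 and 5.62 normalised counts with vehicle and between 16.8 and 22.1 with melatonin. *Mlxip* and *Mlxipl* were named after their values were seen.

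TXNRD1 and TXNRD2 carry selenocysteine, and 7 genes for the synthesis of selenoproteins were tested. Of these, 2 were higher (*Pstk* at 0.72 and *Eefsec* at 0.35), 1 lower (*Trnau1ap* at −0.33) and 4 not called, with a median log2 fold change of −0.14. *Trnau1ap* was at −0.16 and not called with the length correction. Of 16 further targets of NRF2, 8 were higher, 3 lower and 5 not called, with a median of 0.35. The largest rises were those of *Gclc* (2.78) and *Nqo1* (1.74), where *Nqo1*, a quinone reductase, rose from 2271 ± 171 (SD, n = 3) to 7676 ± 1720 normalised counts. The largest falls were those of *Slc7a11* (−0.56), the cystine transporter, and *Tkt* (−0.43). *Hmox1*, at −0.12 (limma adjusted p = 0.38), was not called. Without melatonin replicate 1, the number of lower genes in this list was 5.

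**Figure D4:**
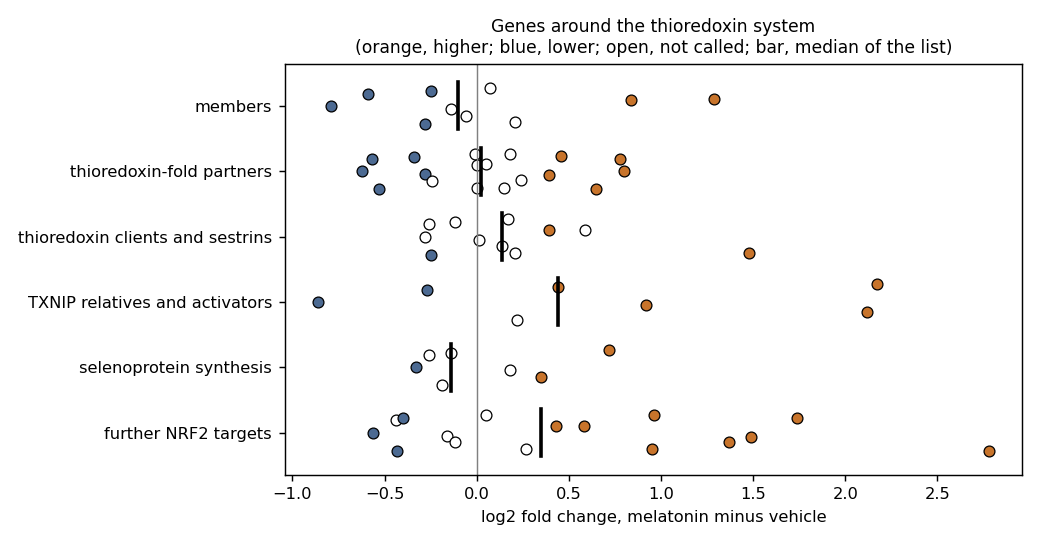
Log2 fold change of melatonin minus vehicle (horizontal axis) for each tested gene of the 10 members and of the 5 lists, coloured by its call in limma, with a bar at the median of each list. Calls in both directions appear in every list, and the medians run from −0.14 for selenoprotein synthesis to 0.44 for the relatives and activators of TXNIP.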

How the data were processed

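Bulk RNA-seq was made from 3 melatonin and 3 vehicle samples of aILC2s. The authors deposited a normalised signal per gene. Per their methods, the authors used Partek Flow 12.9.0, aligned to mm39 with STAR 2.7.8.a, quantified Gencode M33 by the Partek E/M algorithm and removed genes under 10 counts in every sample. The deposited table still lists genes below that level, such as *Prdx6b*, at 7.34 normalised counts or below. The authors applied the median ratio normalisation of DESeq2. The E/M step can divide a read between similar genes. Between 72.2% and 73.7% of values under 60 were whole multiples of 1 read (tolerance 0.01), so whole reads were not recovered, and the spacing of low values served only to estimate depth. Names, GRCm39 positions and transcript lengths came from Gencode M39, which named 16334 of 16381 identifiers.

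Genes that reached a normalised count of 10 in any sample (14419) were tested on log2(value + 1) with limma 3.58.1 in R 4.3.3, using the mean-variance trend and treatment alone. This scale understates changes of low genes. Adjustment by Benjamini-Hochberg covered all of them, at a threshold of 0.05. The test was also run on simulated data. The chi-square per degree of freedom between libraries of a group was at least 6.01, so none was a copy. Library numbers run separately in the 2 groups, and a batch that followed them cannot be told apart from treatment. The members and lists were chosen with earlier results of these data known. From each list the text names the 2 largest called rises and falls whose mean reached 100 normalised counts. Close copies and relatives of members, *Hmox1*, the methionine sulfoxide reductases, *Rrm2b*, *Arrdc1*, *Mlxip* and *Mlxipl* were named outside that rule after their values were seen. Tables were made in Python 3.11.15 with pandas 2.3.3. Alternatives comprised pseudocounts, filters, scalings, variance models, a block for the replicate number, omission of single samples, a lowess correction for length and omission of the libraries that hold *Xist*.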

Additional observations from a re-analysis of the deposited data

How the results depend on the processing

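The calls of *Prdx2*, *Srxn1* and *Txnrd1* kept their direction and their side of the threshold under all 19 alternatives. *Prdx1* was called with quantile normalisation (0.35), sample weights (0.22) and limma's voom (0.25). *Prdx3* lost its call without the trend (−0.28) and with the length correction (−0.18), and *Txn2* with quantile normalisation (−0.15). *Txnip* lost its call with scaling to the same total (−0.56), without the trend (−0.59), with voom (−0.55) and without the libraries that hold *Xist* (−0.03). In that last setting, where 1 melatonin sample is assumed to vary like the vehicle samples, *Txn1* was called lower (−0.33), *Prdx5* turned to −0.04 and *Prdx6* to 0.08, 4 thioredoxin clients and sestrins were higher, 3 selenoprotein synthesis genes lower and 0 relatives and activators of TXNIP lower. *Prdx6* was also at 0.02 with quantile normalisation and *Txn1* at 0.13 with the length correction, and *Txn-ps1* was at 0.00 and 0.27 in these 2 settings. Without the trend, 2 members, 3 thioredoxin-fold partners and 0 clients and sestrins were lower. The number of lower clients and sestrins was 0 with quantile normalisation and 2 with the length correction, that of lower selenoprotein synthesis genes was 2 with upper quartile scaling, and that of lower NRF2 targets was 5 with sample weights. The cause was not tested.

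On leaving out single samples, which also lowers the degrees of freedom, the log2 fold change ran from 0.14 to 0.27 for *Prdx1*, from −0.33 to −0.25 for *Prdx3*, from −0.13 to 0.00 for *Prdx6*, from −0.27 to −0.23 for *Txn2* and from −0.87 to −0.38 for *Txnip*. The number of lower members ran from 1 (without vehicle replicate 1 or 2) to 4, of lower partners from 1 to 5, of lower clients and sestrins from 0 to 2, of lower relatives and activators of TXNIP from 1 to 2 and of lower NRF2 targets from 2 to 5. Same-numbered samples did not deviate together (r = −0.106, 0.136 and −0.194 over 9990 genes), so the numbers were not taken as pairs. With the replicate number as a block, 3160 genes were higher and 3278 lower, 4 of the partners were lower in place of 5, and no member's call changed.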
